A study of Mus musculus with 4 samples.

Results

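Lin28b, Igf2bp1, Igf2bp2, Igf2bp3, Hmga2 and Hmga1 form a set of fetal growth regulators that are often called oncofetal, because they are made in the embryo, decline in most adult tissues and return in tumours. They were chosen by name, taking every probe whose gene name in the array files was one of these 6. This gave 14 probes of the 41174 on the array, and 6 genes of 30038 gene names. RNA came from mouse liver of the C57BL/6NCr strain and was hybridised to 4 one-colour Agilent arrays. A pair of arrays held hepatoblasts of embryonic day 13 (E13 hepatoblasts, n = 2), the fetal progenitors of hepatocytes and of the bile duct epithelium. The other pair held hepatocytes of mice aged 8 weeks (adult hepatocytes, n = 2). The labels give no transgene, treatment, sex or sorting marker, and nothing in them ties the samples to separate animals. The p-values therefore reflect only how far these samples differ from each other, possibly for technical reasons, and precision is limited by the small number of arrays.

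Lin28b is an RNA-binding protein that blocks the maturation of let-7 microRNAs. The let-7 family in turn represses many growth genes, and the messages of Hmga2, of the Igf2bp genes and of Lin28b itself are known let-7 targets. Igf2bp proteins bind messenger RNAs such as Igf2 and Myc and control their stability and translation, and Hmga proteins are architectural chromatin factors that bend AT-rich DNA. In fetal liver the Lin28b and Hmga2 axis is best known from blood stem cells, whose fetal traits it maintains.

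The let-7 sequences are shown because Hmga2, the Igf2bp genes and Lin28b are known let-7 targets. The level of let-7 itself was not examined here. RefSeq (GRCm38.p6) held 8 mature 5p let-7 sequences, and all 8 shared one seed, bases 2 to 8, printed in capitals for 3 of them.
mmu-let-7a-5p: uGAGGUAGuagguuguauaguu
mmu-let-7g-5p: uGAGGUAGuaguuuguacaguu
mmu-let-7i-5p: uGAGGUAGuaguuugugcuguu
The complement of that seed, CTACCTC, was searched on the sense strand of every probe. It occurred in 126 of 41174 probes (0.306%) and in 2 of the 14 member probes, the brightest probe of Hmga2 and the brightest of Igf2bp1. Their sites are printed with the seed match in capitals, on the minus strand of mm9, at chr10:119798743-119798772 for Hmga2 and at chr11:95819442-95819471 for Igf2bp1.
Hmga2 site: tacaatcaaaacacactaCTACCTCttaag
Igf2bp1 site: tggttttaatCTACCTCttagcaaaacaat
The Hmga2 site continued the match to 11 bases with let-7g and let-7i, whereas the Igf2bp1 site matched all 8 let-7 sequences over the 7 bases of the seed alone. A match is a description of the letters and not evidence of binding. The next 3 probes are those of Lin28b and Igf2bp3 that lie nearest the start of the RefSeq transcript, 1 of Lin28b (chr10:45140412-45140471, minus strand) and 2 of Igf2bp3 (chr6:49037849-49038456 and chr6:49057401-49057460, minus strand). They are shown because the probes of each gene gave unequal signals.
Lin28b A_52_P532355: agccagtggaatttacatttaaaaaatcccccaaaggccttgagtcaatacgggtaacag
Igf2bp3 A_51_P302336: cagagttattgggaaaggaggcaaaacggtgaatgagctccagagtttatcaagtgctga
Igf2bp3 A_52_P271232: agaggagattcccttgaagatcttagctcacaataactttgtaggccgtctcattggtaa
The file places the first Igf2bp3 probe over 608 bases of the genome although it is 60 bases long, as a probe across a splice junction would be placed. None of these 3 probes held the let-7 seed match.

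All 6 genes were called higher in E13 hepatoblasts than in adult hepatocytes, and for 5 of them neither adult array was well above background. Among the 16422 genes tested, 64.8% were called, 32.8% higher in E13 hepatoblasts and 32.1% higher in adult hepatocytes, and 10.5% were called higher in E13 hepatoblasts with neither adult array well above background. Both adult arrays lay below both E13 arrays for all 6 members, as they did for 43.1% of genes tested. A gene entered the test where both arrays of 1 group or the other carried the scanner software's mark for a probe well above background. All 14 member probes passed this filter, but 13 of them passed through the E13 arrays alone. Such a choice favours probes that are higher in E13 hepatoblasts, so the count of members called is no support of its own. Signals are given as log2 of the background-subtracted intensity relative to the array's 75th percentile, so that 0 is the signal of that percentile. They are not comparable between probes.

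**Figure D1:**
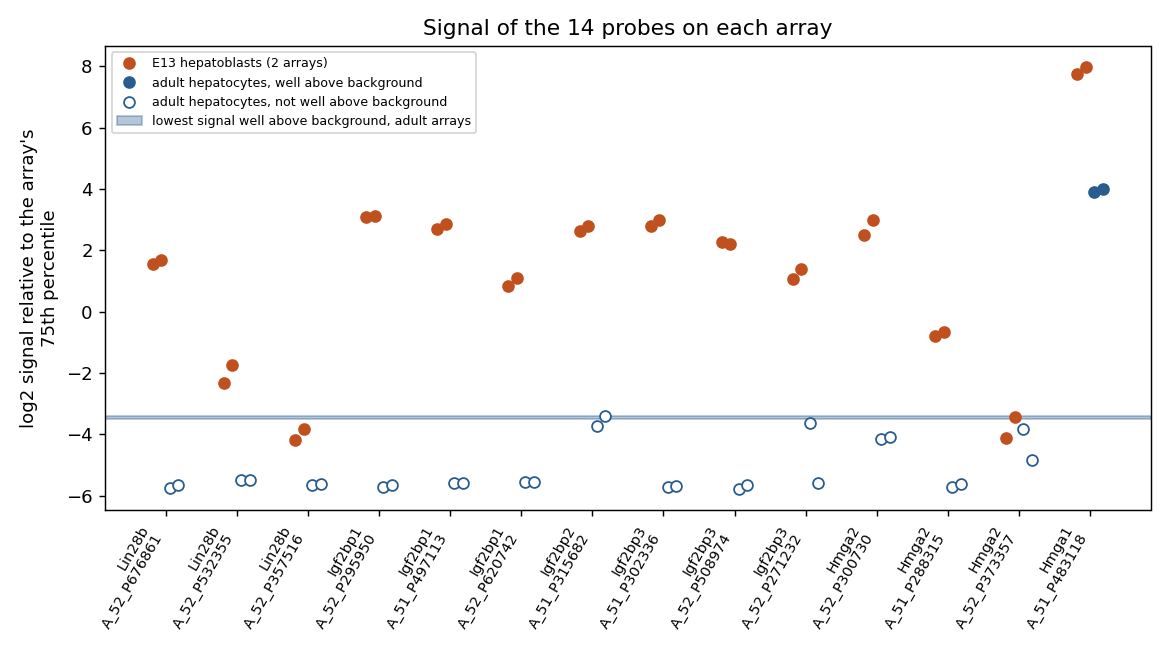
Signal of every member probe on each of the 4 arrays, as log2 relative to the array's 75th percentile on the vertical axis, with 1 point per array. Open points are adult signals that were not well above background, and the band gives the lowest signal well above background on the adult arrays (-3.50 and -3.41). All adult points are open except those of Hmga1, and only the Hmga2 probe A_52_P373357 has groups that overlap.

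Lin28b was read most strongly by the probe A_52_P676861 near the end of its message (chr10:45096968-45097027, mm9, minus strand). Its log2 signal was 1.55 and 1.70 on the E13 arrays and -5.74 and -5.65 on the adult arrays. Both adult values were surrogates, which the scanner software sets for spots with no signal above the local background. Lin28b was at least 33.8-fold higher in E13 hepatoblasts, with a fitted log2 fold (adult minus E13) of -7.32 ± 0.15 (SE) and an adjusted p of 4.08e-05 by limma with Benjamini-Hochberg adjustment over all genes tested. The phrase "at least" marks a lower bound, used wherever neither adult array was well above background. It sets the E13 mean against the mean, over the adult arrays, of the lowest signal well above background there, or of the probe's own signal where that was higher.

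The other Lin28b probes were dimmer. The probe printed above, near the start of the message, gave -2.32 and -1.73 in E13 hepatoblasts against surrogates of -5.50 and -5.49 in adult hepatocytes, a bound of at least 2.70-fold. Its fitted log2 fold was -3.47 ± 0.24 (SE, adjusted p = 3.92e-04 by limma with Benjamini-Hochberg adjustment over all probes tested). The remaining probe, A_52_P357516, was designed on a cDNA clone and lies at chr10:45175317-45175376. It gave -4.17 and -3.82 in E13 hepatoblasts, just above the level at which those arrays detect a signal, against -5.65 and -5.63 in adult hepatocytes. It was called as well (limma with Benjamini-Hochberg adjustment, adjusted p = 0.0016), but its E13 signal lay below what the adult arrays could detect, so no fold is given. On all 3 probes both E13 arrays were above both adult arrays. The lowest signals well above background were -4.78 and -4.44 on the E13 arrays.

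Igf2bp1 was detected in E13 hepatoblasts by all 3 of its probes. Its brightest probe, A_52_P295950, holds the let-7 site printed above and lies at chr11:95819412-95819471. The log2 signal was 3.08 and 3.12 in E13 hepatoblasts and -5.72 and -5.64 in adult hepatocytes, where both values were surrogates. This is at least 94.0-fold higher in E13 hepatoblasts, with a fitted log2 fold of -8.78 ± 0.14 (SE, adjusted p = 3.04e-05 by limma with Benjamini-Hochberg adjustment). The probe A_51_P497113 (chr11:95824526-95824585) gave 2.69 and 2.86 against -5.60 and -5.58, at least 75.2-fold. The probe A_52_P620742 (chr11:95823504-95823563) gave 0.84 and 1.11 against -5.55 and -5.55, at least 21.6-fold. The 3 probes of Igf2bp1 thus gave the same direction with no adult signal above the local background on any of them.

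Igf2bp3 behaved much like Igf2bp1 on these arrays. The probe A_51_P302336, the one placed over 608 bases, gave 2.78 and 2.98 in E13 hepatoblasts and surrogates of -5.73 and -5.68 in adult hepatocytes. Igf2bp3 was at least 80.6-fold higher in E13 hepatoblasts, with a fitted log2 fold of -8.58 ± 0.15 (SE, adjusted p = 3.49e-05 by limma with Benjamini-Hochberg adjustment). The probe A_52_P508974 (chr6:49035710-49035769), toward the end of the message, gave 2.27 and 2.19 against -5.80 and -5.66, at least 51.5-fold. The third probe was the one on which the adult arrays disagreed. A_52_P271232 gave 1.05 and 1.39 in E13 hepatoblasts, and -3.62 and -5.59 in adult hepatocytes, where the first value was significantly above the local background and the second was a surrogate. Its bound was at least 25.5-fold, and its fitted log2 fold of -5.82 had the largest standard error of the 14 probes, 0.66 (adjusted p = 0.00176, limma with Benjamini-Hochberg adjustment).

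Igf2bp2, the family member best known for lasting into adult tissues, had a single probe, A_51_P315682 (chr16:22059260-22059319, minus strand). It gave 2.64 and 2.81 in E13 hepatoblasts and -3.73 and -3.41 in adult hepatocytes. Unlike the brightest probes of Igf2bp1 and Igf2bp3, it was significantly above the local background on both adult arrays while still short of the mark for well above background, and neither adult value was a surrogate. It was at least 72.4-fold higher in E13 hepatoblasts, close to its fitted log2 fold of -6.29 ± 0.18 (SE, adjusted p = 7.54e-05 by limma with Benjamini-Hochberg adjustment). In deposited intensity units the Igf2bp2 probe read 3358.9 and 3124.4 on the E13 arrays and 17.7 and 25.1 on the adult arrays.

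**Figure D2:**
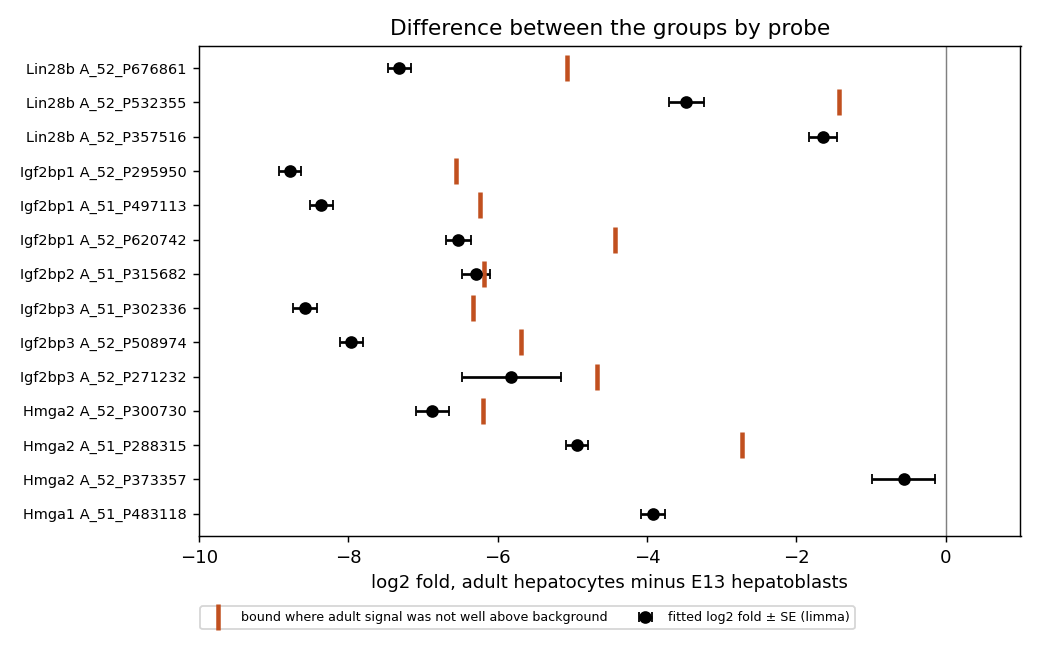
Fitted log2 fold (adult hepatocytes minus E13 hepatoblasts, horizontal axis) of every member probe, with the standard error from limma as bars and 2 arrays per group. Coloured marks give the bound where the adult signal was not well above background. The folds run from -8.78 (Igf2bp1) to -0.56 (Hmga2 A_52_P373357), and probes of Lin28b and of Hmga2 differ most among themselves.

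Hmga2 differed widely between its 3 probes. The brightest, A_52_P300730 (chr10:119798739-119798798, minus strand), holds the let-7 site printed above and gave 2.49 and 3.003 in E13 hepatoblasts and -4.17 and -4.09 in adult hepatocytes. Both adult signals were significantly above the local background but not well above it. Hmga2 was at least 73.7-fold higher in E13 hepatoblasts, with a fitted log2 fold of -6.88 ± 0.22 (SE, adjusted p = 8.35e-05 by limma with Benjamini-Hochberg adjustment). A second probe of the same transcript, A_51_P288315 (chr10:119799670-119799729), gave -0.80 and -0.66 against surrogates of -5.71 and -5.63, at least 6.61-fold.

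The third Hmga2 probe, A_52_P373357, was designed on a cDNA clone (chr10:119811916-119811975) and did not follow the others. It gave -4.13 and -3.43 in E13 hepatoblasts and -3.84 and -4.84 in adult hepatocytes, so that the groups overlapped. Its fitted log2 fold of -0.56 ± 0.42 (SE) did not pass the test (adjusted p = 0.292, limma with Benjamini-Hochberg adjustment), and its intensity never exceeded 41.5. It was the only member probe not called, which left 13 of 14 probes called higher in E13 hepatoblasts, beside 32.9% of all probes tested. Scaling to the spike-in control probes, or a crossed pairing of the arrays, brought the count to 14.

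Hmga1 was the one member with a clear adult signal. Its single probe, A_51_P483118 (chr17:27700543-27700602, plus strand), gave 7.75 and 7.97 in E13 hepatoblasts and 3.89 and 3.99 in adult hepatocytes, well above background on all 4 arrays. In deposited intensity units it read 115660 and 112330 on the E13 arrays, against 3486 and 4228 in adult hepatocytes. No spot on any array was saturated. Hmga1 was 15.2-fold higher in E13 hepatoblasts, a log2 fold of -3.92 ± 0.16 (SE, adjusted p = 1.31e-04 by limma with Benjamini-Hochberg adjustment). The array files list 4 RefSeq transcripts for this probe, of which RefSeq assigns 2 to Hmga1 and 2 to Hmga1b, so the signals of these near-identical genes cannot be told apart.

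On the probe that stands for each gene, the first E13 array differed from the second by between -0.51 (Hmga2) and -0.03 (Igf2bp1). The first adult array differed from the second by -0.33 for Igf2bp2, -0.11 for Hmga1 and -0.08 for Hmga2, whereas the adult values of Lin28b, Igf2bp1 and Igf2bp3 were surrogates whose agreement says nothing of the samples. Dim probes spread more, and the adult arrays differed by 1.97 on the Igf2bp3 probe A_52_P271232, where 1 value was a surrogate, and by 0.995 on the Hmga2 probe A_52_P373357. The fitted log2 folds of the 6 genes had a median of -7.10, against -0.01 over all genes tested. That size depends on how dim signals are treated. With normexp background correction (offset 50), which raises dim signals, the fitted log2 folds were -3.62 for Lin28b, -5.04 for Igf2bp1, -4.35 for Igf2bp2, -5.09 for Igf2bp3, -4.50 for Hmga2 and -4.08 for Hmga1. With the mean of a gene's probes in place of the brightest, Lin28b gave -4.15 and Hmga2 -4.13. All 6 genes were called under both settings.

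Related members were also set against each other within each array, where any scaling of the array cancels. Igf2bp1 minus Igf2bp2 was 0.44 and 0.31 on the E13 arrays and -1.99 and -2.23 on the adult arrays, a change of -2.48. Igf2bp3 minus Igf2bp2 went from 0.13 and 0.17 to -1.995 and -2.28, a change of -2.29. Hmga2 minus Hmga1 went from -5.26 and -4.97 to -8.05 and -8.08, a change of -2.95. In each pair the adult values lay below both E13 values. An exact two-sided permutation test of arrays gave p = 0.333 for each of the 3 changes, the smallest that 2 against 2 arrays allow, so none could pass. The changes also rest on adult signals that were surrogates or near background. They were -0.69, -0.73 and -0.43 with normexp and -1.60, -1.16 and -0.20 with the mean of each gene's probes, so an unequal fall among relatives is not shown.

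By likeness over the 4 arrays, measured as the Euclidean distance between gene-centred log2 signals, Igf2bp1 and Igf2bp3 were the closest pair of members (0.23). Lin28b lay closest to Hmga2 (0.51), and Hmga2 lay 0.66 from Igf2bp2. Hmga1 lay 2.38 to 4.86 from all others. Among all genes tested, the nearest to Lin28b were Tead2 (0.07), 2610002D18Rik and Pcolce2 (0.11 each). Fam64a was nearest to Igf2bp1 (0.12), and an unnamed probe, A_52_P277415, was nearest to Igf2bp3 (0.08) and second nearest to Igf2bp1 (0.29). Igf2bp2 had Cdc6 (0.15), Sh3bp1 (0.17) and Zcchc3 (0.19) nearest, and Hmga2 had Dkk3 (0.15), Pnliprp2 (0.20) and Iqgap3 (0.27). Hmga1 was nearest to Adm2 (0.05), an unnamed probe, A_51_P405089 (0.09), and Parvb (0.10). The third neighbours of Igf2bp1 and Igf2bp3 were 2810432L12Rik (0.35) and Xist (0.29). Xist, an RNA made by female cells, gave 2.76 and 3.37 in E13 hepatoblasts and -5.55 and -5.53 in adult hepatocytes. Sex, which the labels do not give, may therefore differ between the groups. Its part in the members' folds was not tested. Neither adult array was well above background for 5 of the 6 members or for any of the genes and probes listed here as nearest. The order of these distances therefore depends on E13 signals set against adult values at background, and it is given as a description only.

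Promoter windows of the members were searched for CACGTG, the motif of Myc, which is counted below among the targets. Whether Myc acts on the members was not tested. The RefSeq table (GRCm38.p6) held a 300-base window, from 250 bases before to 50 after the gene start, for 5 of the 6 members, all but Igf2bp1. CACGTG, which reads the same on both strands, occurred in 2349 of 32851 promoters (7.15%). It occurred in those of Igf2bp3 and Lin28b, but not in those of Igf2bp2, Hmga2 and Hmga1. The windows of Igf2bp3 and Lin28b are printed with the motif in capitals, at chr6:49214905-49215204 and chr10:45470152-45470451, both minus strand.
Igf2bp3 promoter: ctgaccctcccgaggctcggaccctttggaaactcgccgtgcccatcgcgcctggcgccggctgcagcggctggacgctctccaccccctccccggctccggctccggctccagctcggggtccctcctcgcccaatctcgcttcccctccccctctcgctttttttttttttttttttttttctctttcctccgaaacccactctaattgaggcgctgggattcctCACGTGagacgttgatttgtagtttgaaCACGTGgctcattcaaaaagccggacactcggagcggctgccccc
Lin28b promoter: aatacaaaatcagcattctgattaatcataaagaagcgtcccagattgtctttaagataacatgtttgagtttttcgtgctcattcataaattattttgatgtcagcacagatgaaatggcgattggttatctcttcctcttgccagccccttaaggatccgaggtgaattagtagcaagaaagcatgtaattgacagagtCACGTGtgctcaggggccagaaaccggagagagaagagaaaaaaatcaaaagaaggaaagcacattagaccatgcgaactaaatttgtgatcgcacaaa
The Igf2bp3 window held the motif at 2 places and the Lin28b window at 1. CpG pairs numbered 8 in the Lin28b window, 12 in that of Hmga2, 25 in that of Igf2bp3, 47 in that of Igf2bp2, and 40 and 38 in a pair of Hmga1 start sites, against a median of 7 over all promoters. These are counts of letters and say nothing of binding.

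Of 16 tested genes that make or restrain let-7, 9 were called higher in E13 hepatoblasts, 2 higher in adult hepatocytes and 5 neither. Their median log2 fold was -0.60. Beside this and the list counts below, 32.8% of genes tested were called higher in E13 hepatoblasts and 32.1% higher in adult hepatocytes. Lin28a, the paralog of Lin28b, gave 0.02 and 0.91 in E13 hepatoblasts and surrogates of -5.77 and -5.69 in adult hepatocytes, at least 15.2-fold (adjusted p = 2.43e-04 by limma with Benjamini-Hochberg adjustment). Hnrnpa1, which binds let-7 precursors, had a log2 fold of -2.66, and Eif2c2, the older symbol of the Argonaute gene Ago2, one of -2.37. The 2 genes higher in adult hepatocytes were Zcchc6 (1.54), a terminal uridylyltransferase that modifies let-7 precursors, and Prkra (0.54), a Dicer partner named here after its value was seen. Leaving out E13 array 1, E13 array 2 or adult array 2 left 1 such gene. Among the uncalled were Dis3l2, the exonuclease that degrades uridylated let-7 precursors (0.28), and the precursor exporter Xpo5 (-0.30). Xpo5 was called higher in E13 hepatoblasts with normexp (-0.41), with quantile normalization (-0.40), with both (-0.41) and with the mean of its probes (-1.11).

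Of 21 other known let-7 targets tested, 15 were called higher in E13 hepatoblasts, 4 higher in adult hepatocytes and 2 neither. Their median log2 fold was -1.33. The list was written with earlier results of these data known, and the part of let-7 was not tested. Arid3a, a DNA-binding protein, gave 3.36 and 3.69 against -1.74 and -2.53, a log2 fold of -5.66. The cyclins Ccnd1 and Ccnd2, which drive entry into the cell cycle, had log2 folds of -5.06 and -4.46. Fas, a death receptor, went the other way, with -0.63 and -1.35 in E13 hepatoblasts against 1.28 and 1.82 in adult hepatocytes (2.54). Bach1 (1.19), Cdc34 (1.09) and Insr (0.65), named after their values were seen, were also called higher in adult hepatocytes. Tgfbr1 (-0.16) was among those not called.

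RNAs bound by Igf2bp proteins included the largest differences in any of these lists. Igf2, the fetal growth factor after which the family is named, gave 8.92 and 9.07 in E13 hepatoblasts and surrogates of -5.68 and -5.62 in adult hepatocytes, at least 5583-fold. H19, the non-coding RNA of the same imprinted region, gave 9.03 and 9.28 against -2.81 and -2.78, a log2 fold of -11.95 with signal well above background on all 4 arrays. Myc, which is also on the let-7 target list, gave 1.79 and 1.88 against -1.88 and -2.02 (-3.79). Of 7 such genes tested, 5 were called higher in E13 hepatoblasts, 1 higher in adult hepatocytes and 1 neither, with a median of -1.30. The uncalled gene was Actb (0.82), whose log2 fold was 1.20 without E13 array 2. Actb was called with normexp (0.66) and with signal well above background required on all arrays (0.82). Under each of these settings 2 genes were called higher in adult hepatocytes. With spike-in scaling Actb turned to -0.41 and was not called.

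Proteins that share RNA granules with the Igf2bp family differed by much less. Of 10 such genes, 8 were called higher in E13 hepatoblasts and 2 were not called, with a median of -0.78. Among them were the stress granule protein G3bp1 (-1.66) and the cold-shock protein Ybx1 (-1.21). Stau1 (0.28) and Hnrnpu (0.13) were not called, and Hnrnpu turned to -0.02 with normexp, -0.48 with quantile normalization and -0.56 with the mean of its probes. The count of 8 fell to 5 without E13 array 1 and to 4 without E13 array 2. It was 5 at an adjusted p under 0.01 and 4 with a 2-fold minimum.

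Among the other high mobility group genes, Hmgb2, a chromatin protein of dividing cells, had the largest difference. It gave 5.15 and 5.33 in E13 hepatoblasts and 0.17 and -0.04 in adult hepatocytes, which is a log2 fold of -5.17. The nucleosome-binding gene Hmgn2 had one of -2.98 and Hmgb3 one of -1.83. Of 11 genes tested, 9 were called higher in E13 hepatoblasts and 2 were not called, with a median of -1.28, and the count was 5 at an adjusted p under 0.01. Hmgb1 (-0.67) and Hmg20b (-0.10) were not called. Hmgb1 was called under several other settings, among them normexp (-0.81), quantile normalization (-1.14) and the mean of its probes (-0.81). Without adult array 2 its log2 fold was -0.97.

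Cell cycle genes tied to Hmga proteins by earlier work were few. Of 5 tested, 3 were called higher in E13 hepatoblasts, with a median of -2.36 over the list. These were the cyclins Ccna2 (-6.88) and Ccnb2 (-5.67) and the transcription factor E2f1 (-2.36). Rb1, the retinoblastoma gene that restrains E2f factors, was called higher in adult hepatocytes (1.22). Junb was not called, and its log2 fold of 0.35 turned to -0.28 with quantile normalization. It was -0.14 without adult array 1 and 0.84 without adult array 2. Junb was called higher in adult hepatocytes with normexp (1.49) and with the mean of its probes (1.01). Under each of these 2 settings the count higher in adult hepatocytes rose from 1 to 2. Cdkn2a and Cdkn2b, cell cycle inhibitors that Hmga2 is known to hold down in stem cells, were on the array but well above background on both arrays of neither group.

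**Figure D3:**
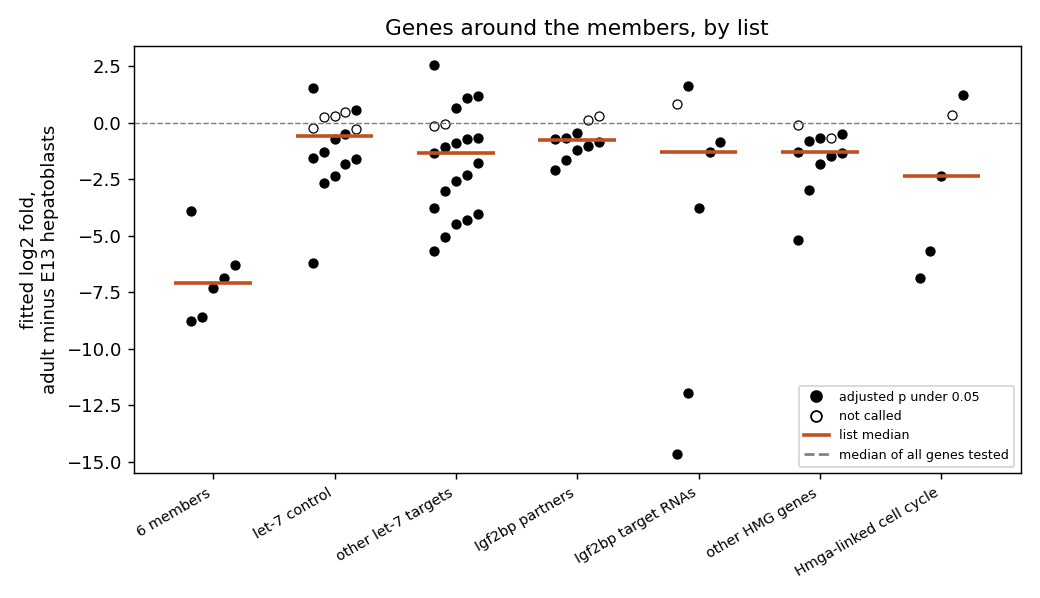
Fitted log2 fold (adult minus E13 hepatoblasts, vertical axis) of the 6 members and of the genes of each list, 1 point per gene, filled where called at an adjusted p under 0.05 by limma, with list medians as bars. Surrogate values enter the fitted folds. The members lie between -8.78 and -3.92, and the list medians lie between -2.36 and -0.60.

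The scaling of the arrays bears on these lists. Scaling to the spike-in probes moved the median log2 fold of all genes from -0.01 to -1.25, and 15 of the 16 let-7 pathway genes were then called higher in E13 hepatoblasts. Under that scaling Rb1 (-0.02) and Zcchc6 (0.31) were not called, while the members ran from -10.02 (Igf2bp1) to -5.16 (Hmga1) and kept their calls.

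The labelled cell types were checked by their markers. Afp, the main plasma protein of fetal liver, gave 9.25 and 9.54 in E13 hepatoblasts and -1.68 and -1.57 in adult hepatocytes, and Alb was high in both groups (9.68 and 9.79 against 10.63 and 10.94). Of the 7 hepatoblast markers, 4 were called higher in E13 hepatoblasts (Afp, Dlk1, Gpc3 and Cdh1), and the 3 that hepatocytes also express, Hnf4a, Alb and Ttr, were called higher in adult hepatocytes. All 9 hepatocyte markers, which include those 3, were called higher in adult hepatocytes. Quantile normalization left 7 of the 9 called, without Alb (-0.24) and Ttr (0.49), and spike-in scaling left 6, without Alb (-0.18), Ttr (-0.14) and Hnf4a (-0.30). Ttr also lost its call without E13 array 2 (0.85) and without adult array 2 (0.80). The scanner software marked 23777 and 23049 probes as well above background in E13 hepatoblasts, and 20040 and 19300 in adult hepatocytes. Across genes, Pearson r was 0.991 between the E13 arrays, 0.989 between the adult arrays and 0.727 to 0.742 between groups.

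Markers of other cells moved with the members. The summed signal of a list is given in units of the array's 75th percentile. Stellate cell markers summed to 60.6 to 67.8 on the E13 arrays and 7.72 to 8.78 on the adult arrays, with 8 of 8 called higher in E13 hepatoblasts. Markers of dividing cells summed to 98.4 to 100.3 against 7.03 to 7.85, with 7 of 8 called that way. Blood progenitor markers summed to 16.8 to 31.7 against 0.41 to 0.43, with 4 of 6 called. Most of the E13 sum came from the platelet gene Pf4 (4.86 and 3.96 on the log2 scale), while Cd34 (-0.51) and Kit (-0.29) were not called and their groups overlapped. Ptprc and Myb were not tested because they were well above background on both arrays of neither group. Erythroid markers summed to 49.1 to 202.2 against 21.7 to 29.3, with 6 of 10 called higher in E13 hepatoblasts, or 3 without adult array 2, and 1 higher in adult hepatocytes, Alas2, the first enzyme of heme synthesis in red cells. Most of the adult erythroid sum came from Alas2 (4.69 and 4.34 on the log2 scale), the marker that went the other way. The part of all these other cells in the members' signals was not tested. In such bulk samples fewer cells of a type and less RNA per cell cannot be told apart.

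The lists also differed in how the first E13 array compared with the second. Erythroid markers were higher on the first E13 array than on the second in every case, by 1.16 to 2.21 with a median of 1.91, and stellate markers had a median difference of 1.03 (-0.38 to 1.48). Blood progenitor markers had a median of 0.92 (0.55 to 2.24). The members had a median of -0.18, with all 6 lower on the first E13 array, and the dividing-cell markers one of -0.01 (-0.22 to 0.12). The median was -0.02 over all genes tested, -0.11 for hepatoblast markers and 0.25 for hepatocyte markers. For the cell types whose sums were higher on the adult arrays it was 1.82 (endothelial), 0.89 (macrophage) and 0.69 (bile duct). All these values rest on a single pair of arrays, and which cells gave the members' signals was not tested. Hba-x among the erythroid genes, and Lrat among the stellate genes, were not tested for lack of signal.

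Markers of further liver cell types had higher sums on the adult arrays, although many single markers were not called. Macrophage markers summed to 0.72 to 1.43 on the E13 arrays and 4.91 to 6.05 on the adult arrays, with 7 of 9 called higher in adult hepatocytes. Endothelial markers summed to 0.63 to 1.99 against 8.36 to 8.58, with 3 of 7 called higher in adult hepatocytes, or 6 without E13 array 1 and 1 without adult array 1, while Pecam1 and Lyve1 were not tested. Bile duct markers summed to 0.56 to 0.66 against 2.43 to 3.93, with Spp1 alone called (6.83), or 2 of 4 markers without adult array 2. The other bile duct markers had fitted log2 folds of 1.01 (Sox9), 0.09 (Krt19) and -0.69 (Krt7), and the uncalled Marco (-0.55) and Tek (-0.35) of the macrophage and endothelial lists were also negative.

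**Figure D4:**
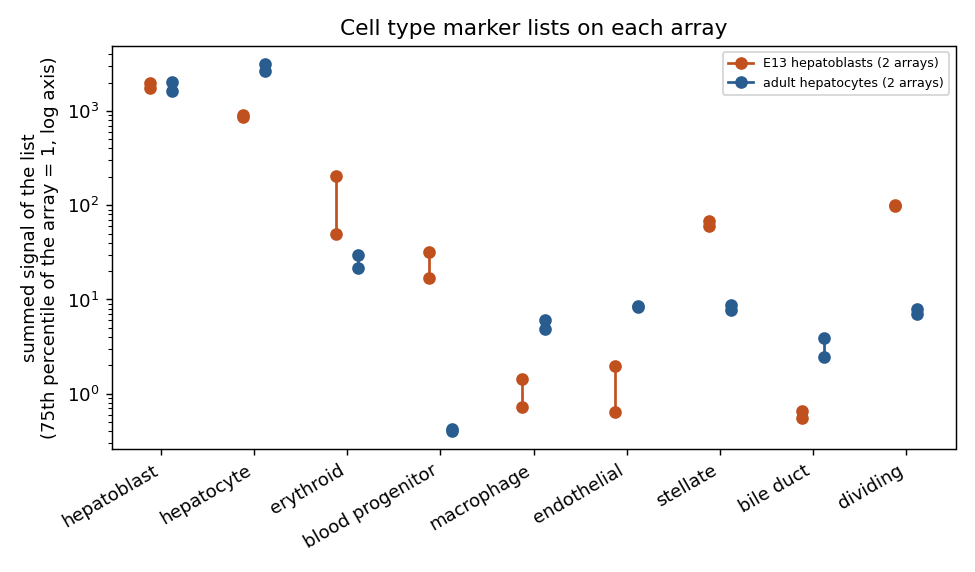
Summed signal of each cell type marker list on each array, on a log axis in units of the array's 75th percentile, with 1 point per array and a line joining the arrays of a group. Stellate, dividing-cell, blood progenitor and erythroid sums are higher on both E13 arrays than on both adult arrays, and the first E13 array stands above the second for erythroid markers (202.2 against 49.1).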

How the data were processed

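Per the file headers, the authors' scanner files hold background-subtracted intensity values made with Agilent Feature Extraction 10.7.3.1, with surrogates at undetected spots and with arrays left unscaled. The deposited log2 values equal the log2 of these intensities minus each array's 75th percentile, to a constant. The same scale was computed here, leaving out 1639 control spots and 18 probes marked as outliers. The brightest tested probe stands for a gene. Groups were compared with limma 3.58.1 in R 4.3.3 (lmFit and eBayes) over 16422 genes or 23463 probes, called at a Benjamini-Hochberg adjusted p under 0.05 and checked on simulated data. The members and lists were chosen with earlier results of these data known. Named list genes are the 3 with the largest fold in the commoner direction, the top called gene in the other and the first 2 uncalled, and 3 neighbours were taken per member. Some genes chosen by this rule were left out of the text. Probe coordinates were taken from the array files (mm9). Exon and UTR annotation of that build was not used here.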

Additional observations from a re-analysis of the deposited data

How the results depend on the processing

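The members' fitted folds were recomputed under 18 alternatives (background correction, normalization, scaling, filters, probe summary, spread, thresholds, pairing and leaving out each array). Those on filters, spread, thresholds and pairing, and the deposited values, all but repeated the main fitted fold of a member. Such repeats bear on the calls and are not separate checks of the size of a fold. All 103 values that could be fitted were negative and called. Lin28b ranged from -8.56 to -3.62, Igf2bp1 from -10.02 to -5.04, Igf2bp2 from -7.53 to -4.35, Igf2bp3 from -9.82 to -5.09, Hmga2 from -8.11 to -4.13 and Hmga1 from -5.16 to -3.81. Spike-in scaling gave 2005 genes higher in adult hepatocytes and 11292 in E13 hepatoblasts, in place of 5267 and 5380. With no filter on dim probes, 30030 genes were tested, and 14614 were called higher in adult hepatocytes and 5488 in E13 hepatoblasts, a one-sided rise whose cause was not tested. Asking for signal well above background on all arrays left 1 member gene and 1 member probe called, because only Hmga1 could be tested. Normexp gave 12 member probes called. Leaving out each array gave 3842 to 4948 genes higher in adult hepatocytes and 3949 to 5210 in E13 hepatoblasts, with 6 member genes and 13 member probes each time. The median of all genes moved to 0.21 with normexp, -0.12 with quantile normalization, 0.15 with signal required on all arrays and 0.75 without the filter.

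Across genes, the difference between the E13 arrays had a correlation of -0.16 with the difference between the adult arrays. A single such value cannot show whether samples with the same replicate number shared a batch or preparation, and the labels name none. With the replicate number as a block, 4691 genes were called higher in adult hepatocytes and 4844 in E13 hepatoblasts, with 6 members and 13 member probes called. A crossed pairing, added after seeing the data, gave 5337 and 5431. Adult signals at background limit every member fold except that of Hmga1 to a bound.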
